A study of Mus musculus with 3 samples.

Results

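The genes described here are 34 excitatory postsynaptic scaffold and adhesion genes, chosen by function through a list of symbols that uses no measured value. The list was nevertheless drawn up with earlier results of these data known. All 34 were measured, each by 1 probe set, among 19504 genes with a symbol on the array. RNA of the hippocampus was taken from male C57BL/6J mice 11 weeks old, combined into 1 pool for each of 3 groups, and measured on 1 whole-transcript Affymetrix array per pool. The RE pool held 4 mice that received restraint stress for 3 weeks, 6 h per day, and then 20 μg of extracellular vesicles (EVs) into the lateral ventricle, prepared from the serum of mice that had access to a wheel for 4 weeks. The RS pool held 4 mice with the same restraint and the same amount of EVs from sedentary donors. The NV pool held 3 mice without restraint that were injected with vehicle. Tissue was collected 3 days after injection.

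The NV sample is labelled as given vesicles, with PBS in brackets, while the study's methods name vehicle, which is followed here. RS differed from NV in restraint and in the injected material, and these cannot be told apart in that comparison. With 1 array per group there is no spread between replicates, so each comparison is the difference of 2 log2 signals with no test and no p-value, and the number of arrays limits the precision. A gene is called higher or lower at a log2 difference of at least 1, the 2-fold limit that the study's methods set. Background was set at a log2 signal of 6.01, the value that 95% of the single-pool signals of 1450 chemosensory receptor genes did not exceed. Signals of different genes come from different probes, so levels are compared here between pools and not between genes.

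The postsynaptic density is a layered protein assembly under the membrane of excitatory synapses. Membrane-associated guanylate kinases (MAGUKs) hold glutamate receptors and adhesion molecules through PDZ domains, SAPAP proteins link them to Shank, and Shank is joined by Homer to metabotropic receptors and calcium stores. CaM kinase II is abundant in this layer and is needed for long-term potentiation in the hippocampus, while neuroligins and LRRTM proteins reach across the cleft to presynaptic neurexins.

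All 34 genes had signals above background in every pool, from 6.60 for Shank3 in NV to 19.15 for Camk2a in RS. In RS against NV, 1 of the 34 was higher, Kalrn, and 2 were lower, Camk2d and Lrrtm3. Over all 19504 genes 3.52% were higher and 4.29% lower in that comparison, so these counts lie near what the whole array gives. Between RE and RS, 0 of the 34 passed 2-fold in either direction, against 0.441% higher and 0.723% lower over all genes. Between RE and NV, the same 3 genes passed in the same directions, against 2.87% higher and 5.12% lower over all genes. RS enters the first 2 of these comparisons and NV the first and the last, so they are not independent of each other.

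**Figure D1:**
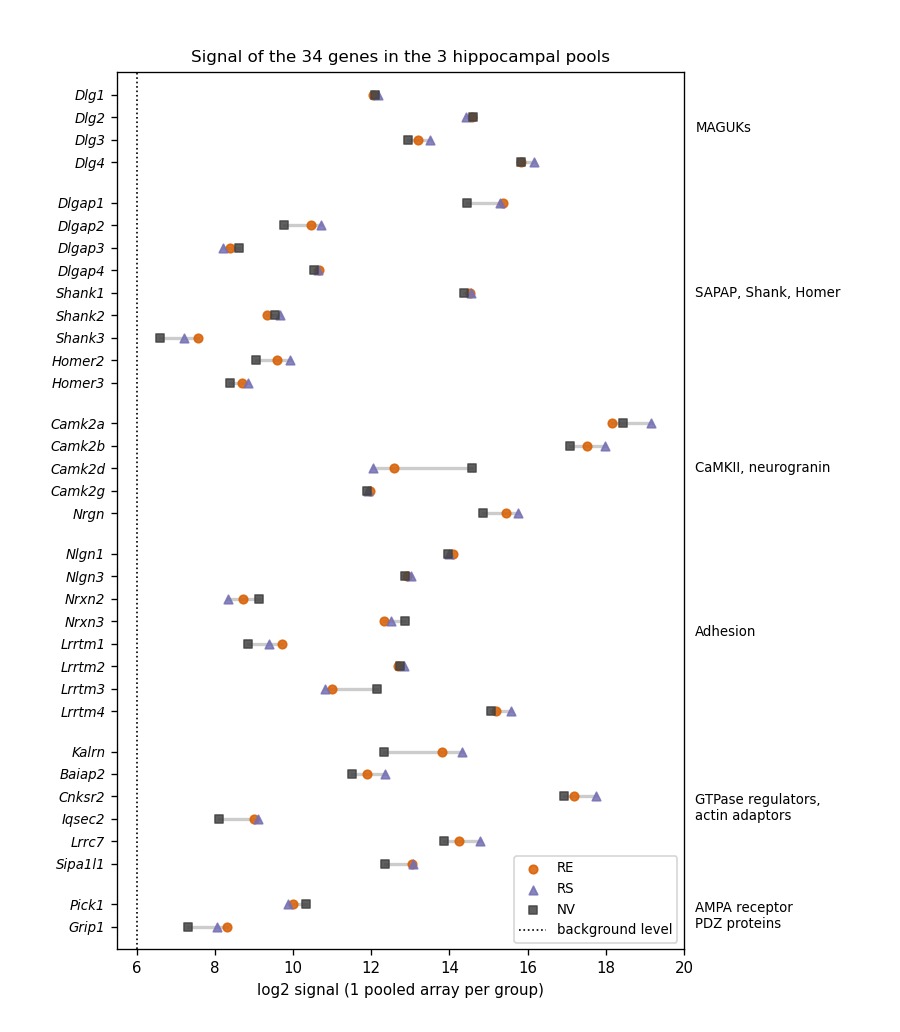
Log2 signal (horizontal axis) of the 34 genes, grouped by role, in the RE, RS and NV pools, with 1 symbol per pooled array, a grey bar over the range of the 3 pools and the background level dotted. The widest bars are those of Camk2d, with NV at 14.58 above the other pools, and of Kalrn, with NV at 12.32 below them.

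Kalrn encodes kalirin, an exchange factor for small GTPases that shapes dendritic spines. Its log2 signal was 13.81 in RE, 14.32 in RS and 12.32 in NV. It stood 4.01-fold higher in RS than in NV (log2 difference 2.0), the 42nd largest rise among the 11810 genes above background in at least 1 of the 2 arrays, and 2.82-fold higher in RE than in NV. RE lay below RS by a log2 difference of -0.51, short of the threshold. Camk2d encodes the delta subunit of CaM kinase II. It had signals of 12.58 in RE, 12.04 in RS and 14.58 in NV. This was 5.81-fold lower in RS than in NV (log2 difference -2.54), the 20th largest fall among those 11810 genes, and 4.01-fold lower in RE than in NV. RE exceeded RS by 0.54. Lrrtm3, a leucine-rich repeat adhesion gene whose product binds neurexins, had 10.99 in RE, 10.81 in RS and 12.15 in NV. It was 2.53-fold lower in RS than in NV (log2 difference -1.34), the 231st largest fall, and 2.23-fold lower in RE than in NV. All 3 genes kept their calls in both comparisons under every scaling tried.

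These are tissue RNA values, in which fewer cells of a type and less RNA per cell cannot be told apart. Marker lists of regions and cell types moved in the same comparison. In RS against NV, 10 of 14 dentate granule cell genes were higher and 0 were lower, with a mean log2 signal of 9.55 in RE, 9.93 in RS and 8.13 in NV. Among 8 ventral hippocampus genes the counts were 0 higher and 7 lower, with means of 10.10 in RE, 9.31 in RS and 11.15 in NV. Of 12 thalamus and habenula genes, 3 were higher and 5 lower, with means of 7.90 in RE, 7.80 in RS and 8.68 in NV. At or below background in all pools were 3 of the 12. The falls reached -4.68 for Tcf7l2, the lowest difference of all 19504 genes, and -3.30 for Slc17a6. The rises reached 1.98 for Prkcd. In the means of these 3 lists RE lay between RS and NV, nearer to RS. All 8 ventral hippocampus genes had a higher signal in RE than in RS, 3 of them past 2-fold, with a median of 0.86. Between RS and NV, 2 of 9 excitatory neuron genes rose and 1 fell, and the list's median was 0.68, with means of 12.93, 13.02 and 12.49 in RE, RS and NV. Of 14 genes of CA1, CA2 and CA3 pyramidal cells, 5 were higher and 3 lower. The 11 oligodendrocyte genes had 5 higher and 0 lower, and the 15 inhibitory neuron genes 0 higher and 3 lower. In the same comparison 1 of 10 astrocyte genes and 1 of 9 microglia genes were higher, with 0 lower in either list. None of the 10 endothelial and pericyte genes passed 2-fold. Of 8 choroid plexus genes 2 were higher and 1 lower, and 2 of the 8 were at or below background in all pools. The labels name hippocampus as the tissue and ventral hippocampus in the description. Of the region lists above, 0 of 14 pyramidal cell genes and 1 of 14 dentate genes were at or below background in all pools, and the dentate genes Dsp, with 4.85, Tdo2, with 4.42, and Lct, with 5.25, were below it in NV but not in RE or RS. The part of these lists in the values of the 34 genes was not tested.

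The 250 bases before the annotated start are shown for the 3 genes past the threshold and for Camk2b and Lrrtm1, a paralogue each of Camk2d and Lrrtm3 that had a higher signal in RS than in NV without passing 2-fold. Sequences are from RefSeq, build GRCm38.p6, written 5′ to 3′ on the gene's strand. Capitals mark matches on either strand to 6 short motifs, which are the cyclic AMP response element core TGACG, the E-boxes CAGCTG and CACGTG, the TATA box TATAAA, the GC box GGGCGG and the CCAAT box CCAAT. Kalrn lies at chr16:34514028-34514277 on the minus strand, Camk2d at chr3:126596701-126596950 on the plus strand, Camk2b at chr11:6065749-6065998 on the minus strand, Lrrtm3 at chr10:64090256-64090505 on the minus strand and Lrrtm1 at chr6:77242227-77242476 on the plus strand.
Kalrn: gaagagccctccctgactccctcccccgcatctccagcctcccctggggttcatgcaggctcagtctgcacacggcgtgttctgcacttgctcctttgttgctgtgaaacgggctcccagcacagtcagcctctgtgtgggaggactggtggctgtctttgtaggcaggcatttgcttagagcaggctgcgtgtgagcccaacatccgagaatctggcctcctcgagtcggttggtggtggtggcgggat
Camk2d: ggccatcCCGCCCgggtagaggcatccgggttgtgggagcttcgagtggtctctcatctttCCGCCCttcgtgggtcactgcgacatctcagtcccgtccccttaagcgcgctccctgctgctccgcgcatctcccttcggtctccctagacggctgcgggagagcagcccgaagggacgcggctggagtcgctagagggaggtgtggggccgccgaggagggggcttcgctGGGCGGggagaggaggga
Camk2b: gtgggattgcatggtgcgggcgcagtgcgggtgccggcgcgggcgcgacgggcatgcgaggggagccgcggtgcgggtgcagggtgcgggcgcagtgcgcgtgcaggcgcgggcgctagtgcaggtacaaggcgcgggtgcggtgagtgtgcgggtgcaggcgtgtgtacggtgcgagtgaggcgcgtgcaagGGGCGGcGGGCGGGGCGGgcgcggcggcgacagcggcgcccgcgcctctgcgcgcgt
Lrrtm3: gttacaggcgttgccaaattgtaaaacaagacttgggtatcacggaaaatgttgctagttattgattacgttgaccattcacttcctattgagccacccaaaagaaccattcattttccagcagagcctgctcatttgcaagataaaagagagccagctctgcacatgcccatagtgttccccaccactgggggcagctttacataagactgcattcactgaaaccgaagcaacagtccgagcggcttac
Lrrtm1: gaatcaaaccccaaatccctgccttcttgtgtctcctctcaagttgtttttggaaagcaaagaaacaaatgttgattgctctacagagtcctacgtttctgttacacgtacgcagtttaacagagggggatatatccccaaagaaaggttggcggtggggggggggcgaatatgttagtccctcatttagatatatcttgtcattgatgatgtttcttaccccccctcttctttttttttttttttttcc
The windows of Kalrn, Lrrtm3 and Lrrtm1 hold 0 matches to the 6 motifs. Those of Camk2d and Camk2b hold 3 GC box matches each. In Camk2b they lie close together, and the last shares a base with the match before it. GC content was 60.8% in Kalrn, 68.4% in Camk2d, 78.4% in Camk2b, 46.0% in Lrrtm3 and 42.0% in Lrrtm1, with 9, 23, 44, 6 and 5 CpG dinucleotides in that order. Of the 34 genes, 26 have 46 such windows in the table and Dlgap2, Shank1, Shank2, Camk2a, Camk2g, Nlgn3, Nrxn2 and Lrrtm2 have none in it. The GC box was found in 41.3% of the 46 windows, against 32.7% of all 32851 windows, CAGCTG in 19.6% against 13.0%, CACGTG in 6.52% against 6.02%, TATAAA in 15.2% against 12.4%, TGACG in 8.70% against 17.8% and CCAAT in 26.1% against 33.8%. Median GC content was 54.6% in the members' windows and 52.4% in all. Which start the probes report on is not known, and genes with several starts contribute several windows.

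Among the 4 MAGUK genes, 0 passed 2-fold in any comparison. In RS against NV 3.52% of all genes were higher and 4.29% lower, so 0 in a list this short does not set it apart. Dlg4, which encodes PSD-95, the main scaffold of the mature density, had 15.82 in RE, 16.16 in RS and 15.82 in NV. Dlg3, which encodes SAP102, had 13.20 in RE, 13.51 in RS and 12.94 in NV. Dlg2, which encodes PSD-93, had 14.57 in RE, 14.42 in RS and 14.61 in NV. RS was the highest pool for Dlg4 and Dlg3 and the lowest for Dlg2. Dlg1, which encodes SAP97, had 12.04, 12.19 and 12.10 in RE, RS and NV. The differences of the 4 genes between RS and NV ran from -0.18 to 0.57, and those between RE and RS from -0.33 to 0.15.

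The layer of SAPAP, Shank and Homer genes held 9 members, of which 0 passed 2-fold. In RS against NV the shares over all genes were 3.52% higher and 4.29% lower, so this 0 does not set the layer apart. Dlgap1, a SAPAP gene, had 15.37 in RE, 15.29 in RS and 14.44 in NV. Dlgap2, another, had 10.45 in RE, 10.72 in RS and 9.78 in NV. NV was the lowest pool for both, with RS above it by 0.84 and 0.94. Dlgap3 ran the other way, with 8.38 in RE, 8.22 in RS and 8.62 in NV, and Dlgap4 was almost flat, with 10.67, 10.64 and 10.55 in RE, RS and NV. The range of the RS minus NV difference over the 4 SAPAP genes was 1.35. Of the master scaffold genes, Shank1 had 14.53 in RE, 14.55 in RS and 14.38 in NV, and Shank2 had 9.35, 9.66 and 9.53 in the same pools. Shank3 had 7.58 in RE, 7.22 in RS and 6.60 in NV. Shank3 was the gene of this layer with the greatest difference between RE and NV, 0.98, and its pools were ordered NV, RS, RE from low to high. Homer2 had 9.60 in RE, 9.92 in RS and 9.05 in NV, and Homer3 had 8.71, 8.86 and 8.38 in those pools. Both Homer genes were lowest in NV and highest in RS, with RS minus NV differences of 0.87 and 0.48.

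The CaM kinase II subunit genes diverged more than any other family in the set. Camk2a, the alpha subunit, had 18.17 in RE, 19.15 in RS and 18.45 in NV. Camk2b, the beta subunit, had 17.52 in RE, 17.99 in RS and 17.08 in NV. Both were highest in RS, above NV by 0.70 and 0.91, whereas Camk2d was lowest there. Camk2g, the gamma subunit, had 11.98, 11.92 and 11.90 in RE, RS and NV. The RS minus NV differences of the 4 subunit genes spanned 3.45 on the log2 scale, against 1.88 for the 4 LRRTM genes, 1.35 for the SAPAP genes and 0.76 for the MAGUK genes. The ends of the range of 3.45 were Camk2d at -2.54 and Camk2b at 0.91, and Camk2b had signals above 16 in every pool. When the median of the 200 genes nearest in mean signal was subtracted, these ends were -2.61 and 0.72. Nrgn encodes neurogranin, which holds calmodulin at low calcium, and had 15.46 in RE, 15.75 in RS and 14.87 in NV. Like Camk2a and Camk2b it was highest in RS and did not reach 2-fold, with an RS minus NV difference of 0.89.

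**Figure D2:**
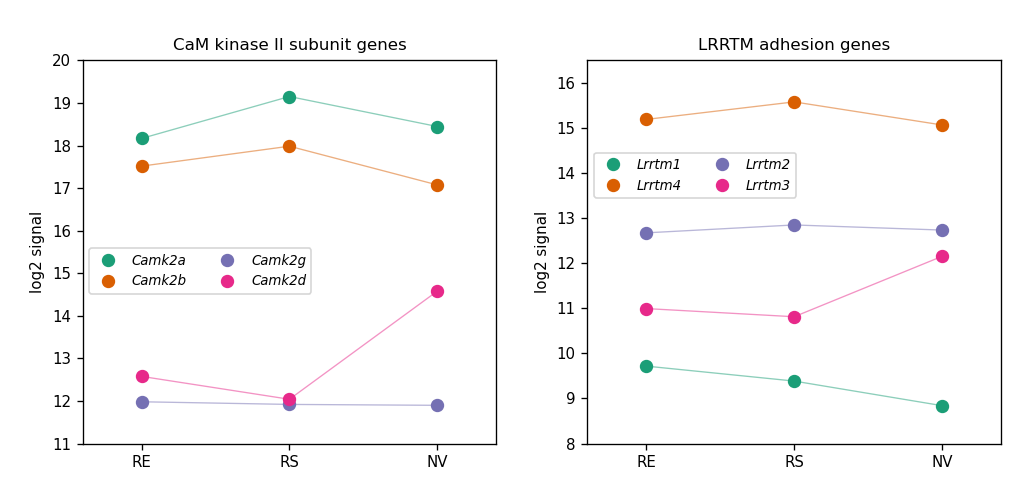
Log2 signal of the CaM kinase II subunit genes (left) and the LRRTM genes (right) in the RE, RS and NV pools, 1 point per pooled array, with thin lines to guide the eye. Camk2d and Lrrtm3 were highest in NV at 14.58 and 12.15, while Camk2a, Camk2b and Lrrtm4 were highest in RS. Levels of different genes are not comparable.

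Camk2a had the greatest difference of the set between RE and RS, -0.98, just short of 2-fold. Strong signals as a whole were lower in RE than in RS. All 134 genes with a mean signal above 16 in these 2 arrays had a lower value in RE, with a median difference of -0.41 and a range of -1.07 to -0.04. Of these, 17 had a mean above 18, with a median of -0.87. Camk2b, with -0.47, and Cnksr2, with -0.57, also lie above 16. In RS against NV the strong signals leaned the other way, with 96 of 135 genes above 16 higher in RS and a median of 0.22, and all 18 genes above 18 higher with a median of 0.40. The RS minus NV differences of Camk2a, Camk2b and Cnksr2, 0.70, 0.91 and 0.83, stand within that range of the scale. How signals came to exceed 16, which is as far as a 16-bit scanner value reaches in log2, is not stated in the labels or methods. The part of this range of the scale in the values of the 3 genes was not tested. When the median of the 200 genes nearest in mean signal was subtracted, the RE minus RS difference was -0.64 for Camk2a, -0.12 for Camk2b and -0.22 for Cnksr2, and the RS minus NV difference was 0.52, 0.72 and 0.64 for the same genes.

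**Figure D3:**
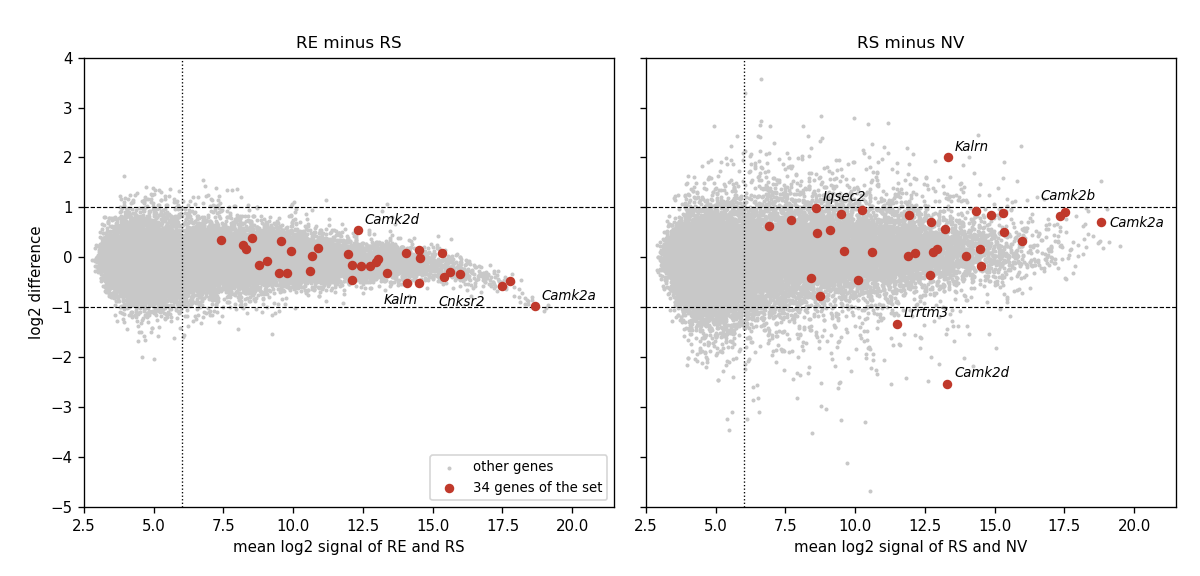
Log2 difference (vertical axis) against mean log2 signal (horizontal axis) for all 19504 genes, RE minus RS on the left and RS minus NV on the right, with the 34 genes in red, the 2-fold threshold dashed and the background level dotted. On the left the strongest signals bend below 0, down to -0.98 for Camk2a among the 34. On the right Kalrn, Camk2d and Lrrtm3 lie outside the dashed lines.

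Of the 8 adhesion genes, Lrrtm3 alone passed 2-fold (12.5%), against 4.29% of all genes lower in RS against NV. Its relatives had other patterns. Lrrtm1 had 9.72 in RE, 9.39 in RS and 8.84 in NV, lowest in NV. Lrrtm4, whose product binds heparan sulfate proteoglycans as well as neurexins, had 15.19 in RE, 15.58 in RS and 15.07 in NV, highest in RS. Lrrtm2 had 12.68, 12.85 and 12.74 in RE, RS and NV, a range narrower than that of the other 3. The neuroligin genes, whose products are postsynaptic partners of neurexins, were nearly level between pools. Nlgn1 had 14.08 in RE, 14.00 in RS and 13.97 in NV, and Nlgn3 had 12.92, 13.01 and 12.85 in those pools. The neurexin genes were highest in NV. Nrxn2 had 8.73 in RE, 8.34 in RS and 9.12 in NV, and Nrxn3 had 12.34 in RE, 12.52 in RS and 12.88 in NV. The RS minus NV difference was -0.78 for Nrxn2 and -0.36 for Nrxn3, both short of 2-fold. Over the 8 adhesion genes its median was 0.07.

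The 6 genes for GTPase regulators and actin adaptors, Kalrn among them, all had a higher signal in RS than in NV, with a median difference of 0.88 and a range of 0.72 to 2.0. Apart from Kalrn, none reached 2-fold, which made 16.7% of the 6 higher against 3.52% of all genes. Iqsec2, an exchange factor for Arf GTPases, came nearest, with 9.01 in RE, 9.10 in RS and 8.11 in NV, a difference of 0.99. Lrrc7 encodes densin, which binds CaM kinase II, and had 14.26 in RE, 14.78 in RS and 13.86 in NV. Cnksr2, a scaffold of Ras and Rap signaling, had 17.19, 17.75 and 16.93 in RE, RS and NV. For both, RS was the highest pool and NV the lowest. Baiap2 encodes IRSp53, which couples small GTPases to actin, and had 11.89 in RE, 12.35 in RS and 11.50 in NV. Sipa1l1 encodes a GTPase-activating protein for Rap and had 13.04 in RE, 13.06 in RS and 12.35 in NV. Of all 19504 genes, 9661 had a higher signal in RS than in NV. In the further list of 37 scaffold and signaling genes given below, 23 had a higher and 14 a lower signal in RS. GTPase regulators there stood on both sides, with Sipa1l2 at 0.92, Agap2 at 0.70, Tiam1 at -0.66 and Rasgrf2 at -0.82. All 6 members of the present group had a lower signal in RE than in RS, by differences of -0.57 to -0.02, with 0 past 2-fold. Over all 19504 genes 11408 were lower in RE, with a median of -0.07. Sipa1l1 rose above 0 when the values were centred on that median (0.04). It was also above 0 after removal of the trend on mean signal (0.08). Subtraction of the median of the 200 genes nearest in mean signal gave 0.06 for this gene. The PDZ proteins that bind AMPA receptor tails did not move together. Grip1 had 8.31 in RE, 8.06 in RS and 7.32 in NV, lowest in NV, and Pick1 had 10.003 in RE, 9.87 in RS and 10.32 in NV, highest in NV.

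**Figure D4:**
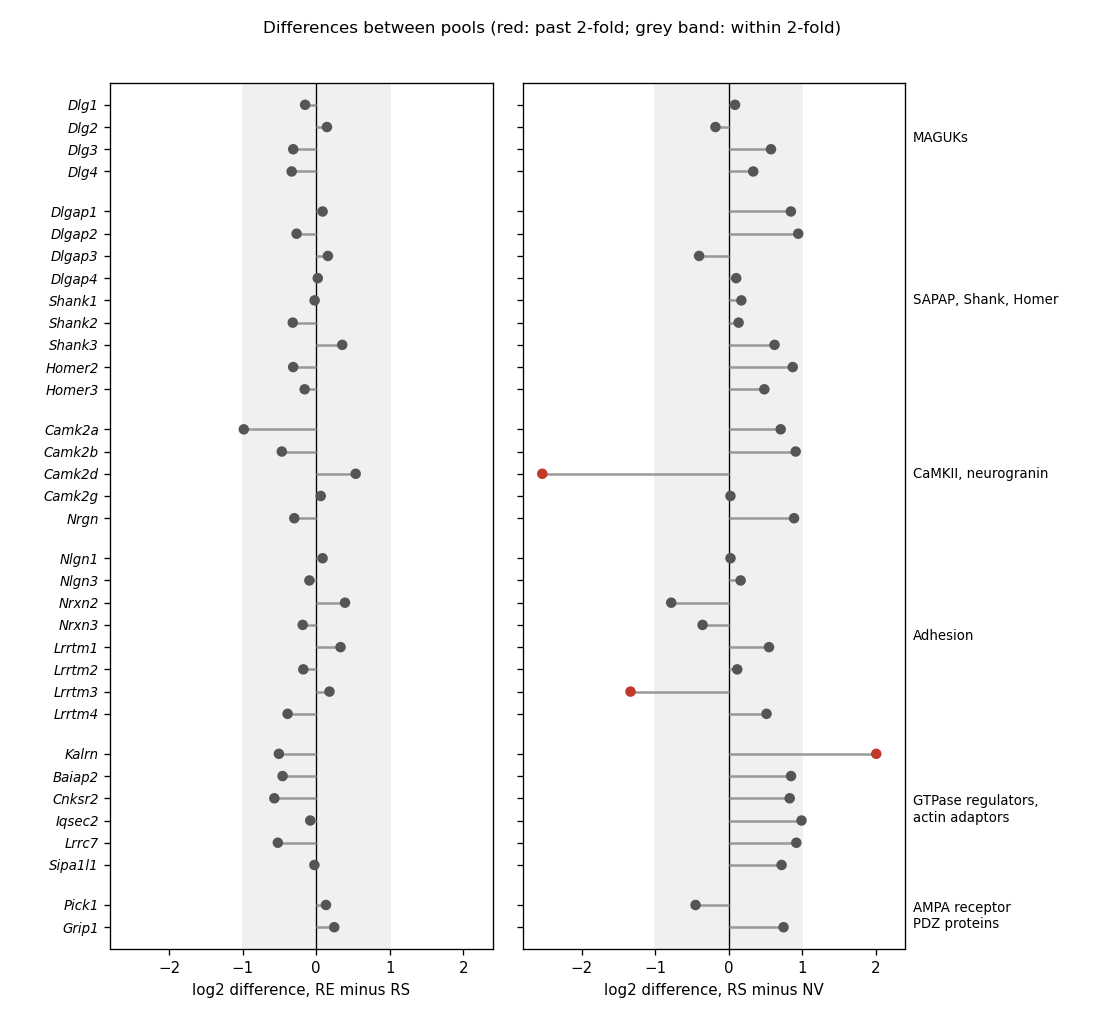
Log2 differences (horizontal axes) of the 34 genes, grouped by role, RE minus RS on the left and RS minus NV on the right, with the range within 2-fold in grey and genes past it in red. On the left no point leaves the grey band, and on the right Kalrn at 2.0, Lrrtm3 at -1.34 and Camk2d at -2.54 do.

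The differences short of 2-fold leaned one way in RS against NV. Of the 34 genes, 27 had a higher and 7 a lower signal in RS, with a median difference of 0.50 and quartiles of 0.04 and 0.84. The median was -0.01 over all genes and 0.07 over the 11810 genes above background. At a threshold of 1.5-fold, 14 members (41.2%) were higher, against 12.3% of all genes and 15.7% of those above background. These were Kalrn, Iqsec2, Dlgap2, Lrrc7, Camk2b, Nrgn, Homer2, Baiap2, Dlgap1, Cnksr2, Grip1, Sipa1l1, Camk2a and Shank3. At that threshold 3 members (8.82%) were lower, Camk2d, Lrrtm3 and Nrxn2, against 13.2% of all genes. The members' median was 0.38 after the trend of the difference on mean signal was removed, and 0.27 when the mean of RS and RE was set against NV. For the 9 excitatory neuron markers the median difference between RS and NV was 0.68, and their part in the members' median was not tested.

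Between RE and RS, 13 of the 34 genes had a higher and 21 a lower signal in RE, with a median difference of -0.12. Over all 19504 genes 8095 were higher and 11408 lower in RE. All genes had a median of -0.07, as did the genes above background. At 1.5-fold, 0 members were higher and 1 was lower, Camk2a, against 3.46% higher and 6.33% lower over all genes. Apart from Camk2a the extremes were Cnksr2 at -0.57 and Camk2d at 0.54. Between RE and NV the median difference of the members was 0.14, against -0.06 over all genes and 0.01 over the genes above background. At 1.5-fold, 9 members were higher and 2 lower, against 10.5% higher and 16.0% lower over all genes. Just short of 2-fold in this comparison were Grip1 at 0.99, Shank3 at 0.98 and Dlgap1 at 0.93. Centring on the median of all genes took Grip1 and Shank3 past it, which made 3 members higher.

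Other genes of the same synaptic assembly were taken from lists drawn up by function, also with earlier results of these data known. Of 39 further excitatory postsynaptic scaffold and signaling genes, 37 are analysed here. In RS against NV, 5 of the 37 passed 2-fold upward (13.5%) and 0 downward, against 3.52% and 4.29% of all genes, and the median difference was 0.35. The count upward was 4 after removal of the trend on mean signal and 2 when the mean of RS and RE was set against NV. The 5 were Tanc1, a scaffold that binds PSD-95, with 8.86 in RE, 8.61 in RS and 6.62 in NV, Cttnbp2, a cortactin-binding spine protein, with 13.75, 14.54 and 13.05, Lin7c, a PDZ partner of MAGUKs, with 13.55, 14.01 and 12.88, the activity-regulated gene Arc, with 8.32, 8.74 and 7.61, and Nsmf, a synapse-to-nucleus messenger, with 12.16, 12.48 and 11.38. In all 5, NV was the lowest pool. Homer1, the family member outside the set, had 14.38 in RE, 14.70 in RS and 14.20 in NV, without passing 2-fold. In RE against RS, 0 of the 37 passed in either direction, against 0.441% higher and 0.723% lower over all genes. In RE against NV, Tanc1 and Mpp3, a MAGUK-family gene with 10.60 in RE, 9.89 in RS and 9.43 in NV, were higher. Camk2n2, an inhibitor of CaM kinase II, was lower, with 7.06 in RE, 7.31 in RS and 8.16 in NV. These calls were 5.41% of the 37 higher and 2.70% lower, against 2.87% and 5.12% of all genes.

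Of 45 further synaptic adhesion genes, 41 are analysed here. Of the 41, 6 rose (14.6%) and 5 fell (12.2%) in RS against NV, against 3.52% and 4.29% of all genes. The median of the 41 was 0.08. The 3 largest rises were those of C1ql2, with 11.51 in RE, 11.80 in RS and 9.13 in NV, of the ephrin receptor gene Epha4, with 14.70, 15.09 and 13.07, and of C1ql3, with 14.59, 15.04 and 13.80. C1ql2 and C1ql3 encode secreted synaptic organizers, and C1ql2 is also in the dentate granule cell list given above. The falls included all 3 cerebellin genes on the list, whose products bridge neurexins to postsynaptic receptors. Cbln2 had 7.80 in RE, 7.86 in RS and 9.53 in NV, Cbln1 had 6.20, 5.92 and 7.30, and Cbln4 had 8.71, 8.26 and 9.51. The other 2 were Ptprf, a receptor phosphatase, with a difference of -1.32, and Lrfn4, an adhesion gene whose product binds PSD-95, with -1.06. In RE against RS, only Ephb3 of the 41 passed 2-fold (2.44%), against 0.441% higher and 0.723% lower over all genes. Ephb3 was lower, with 5.54 in RE and 6.72 in RS, and its RE value lay below background. In RE against NV, C1ql2 and Epha4 were higher and Cbln2 and Cbln1 lower. Each direction held 4.88% of the 41, against 2.87% higher and 5.12% lower over all genes.

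Of 8 inhibitory postsynapse genes taken as a counterpart, 6 are analysed here. Slitrk3, an adhesion gene of inhibitory synapses, was higher in RS than in NV, with 12.26 in RE, 12.14 in RS and 11.11 in NV. It did not pass 2-fold in that comparison once the trend on mean signal was removed. In RE against NV Slitrk3 was also higher, by 1.14, and there it stayed past 2-fold after that removal. In both comparisons it was the only call among the 6 (16.7%), against 3.52% and 2.87% of all genes higher. Gphn, which encodes the scaffold gephyrin, had 12.56, 12.62 and 12.50 in RE, RS and NV. The adhesion gene Nlgn2 had 10.87, 10.69 and 10.81. The median of the 6 genes was -0.08 for RS against NV and 0.15 for RE against RS. In the second comparison 0 passed 2-fold, against 0.441% higher and 0.723% lower over all genes.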

How the data were processed

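The authors deposited 1 table of log2 signals for 22205 probe sets in 3 pools. RMA and Affymetrix Power Tools are listed in the submitters' processing notes, and Command Console in the study's methods, all without versions. Gene names came from the platform annotation, updated by gene identifier, which changed 0 symbols. In all, 19571 probe sets had 1 symbol and 2634 had none here, and 55 genes with more than 1 were represented by the probe set of highest 3-array mean. Array signal has no read depth.

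Differences of log2 signals were computed with 1 array per group, so no test was run. The steps were run on simulated data with shifts well past the threshold. The noise there was set from the spread of RE minus RS across genes, which is narrower than that of RS minus NV. That run therefore says nothing about calls near 2-fold. The 34 members and all lists were chosen with earlier results of these data known. Named genes are all 34 members and, per further list, up to 3 rises and 3 falls past 2-fold in a gene above background, or every gene of a count of 5 or fewer. Homer1, Nlgn2, Gphn, Dsp, Tdo2, Lct, Tcf7l2, Slc17a6, Prkcd, Sipa1l2, Agap2, Tiam1 and Rasgrf2 were chosen after their values were seen. Alternatives were centring, a lowess trend (span 0.3), the mean of probe sets, a filter on background, 1.5-fold, the mean of RS and RE, and, chosen after seeing the data, subtraction of the median of the 200 genes nearest in signal. Lowess used statsmodels 0.14.6, under Python 3.11.15 with pandas 2.3.3 and numpy 2.4.6.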

Additional observations from a re-analysis of the deposited data

How the results depend on the processing

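Kalrn, Camk2d and Lrrtm3 kept their direction and stayed past the threshold under all alternatives run, both in RS and in RE against NV. In RS against NV the members' median of 0.50 was 0.38 after removal of the lowess trend and 0.27 when the mean of RS and RE was set against NV, and 14 members in place of 1 were higher at 1.5-fold. In RE against RS, 1 member in place of 0 was lower at 1.5-fold. In RE against NV, 1 member was higher as deposited, 3 after centring on the median of all genes, 2 after subtraction of the median of the 200 genes nearest in mean signal, and 9 at 1.5-fold. Of 54 counts and medians of the members under alternatives, 47 stayed within 1.5 times or 0.1 of the value as deposited, and 0 of the 33 values of members that had passed 2-fold changed sign. Of all 544 single-gene values 23 changed sign, none larger than 0.13 in size as deposited. Of 162 values of the further lists, 25 moved beyond those limits. No member has several probe sets and none lies below background, so those alternatives could not move these values. The 1.5-fold threshold leaves each single-gene difference as it was, so it could not change a sign. The mean of probe sets and the 1.5-fold threshold are nevertheless counted in the 33 and the 544 values. The mean of probe sets and the filter on background are counted in the 54. No paired analysis was possible because each group has 1 array, and no replicate could be left out. Precision is limited by having 3 arrays, and the part of the upper range of the scale in the differences of Camk2a, Camk2b and Cnksr2, the members above 16 in every pool, was not tested.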
